A study of Mus musculus with 8 samples.

Results

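The nuclear tRNA genes for glycine and glutamate were followed in small RNA libraries of mouse bone marrow-derived macrophages (BMDMs). Members were the features of the nuclear tRNA class whose name gives Gly or Glu as the amino acid. They were 50 gene copies of 428 nuclear tRNA features and of 3514 features listed in either table, and all 50 were listed in both tables. BMDMs were grown from the marrow of male C57BL/6J mice, 10 weeks of age per the study's methods, and differentiated in medium with L929-cell conditioned medium, a source of the growth factor M-CSF. Control cells were left untreated, and the others were kept without M-CSF for 36 h, a treatment that the study used to induce apoptosis. Total RNA was sequenced on the Ion Proton (2 control and 2 M-CSF withdrawal libraries, biological replicates per the methods) and on the SOLiD platform (1 library of each condition). A further SOLiD library of each condition was made from small RNA selected by size on a gel.

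A tRNA is transcribed by RNA polymerase III, carries its amino acid to the ribosome and reads codons through its anticodon, the last letters of the names used here. In stressed cells, tRNAs are cut within the anticodon loop by ribonucleases such as angiogenin, and 5′ fragments of the tRNAs with the anticodons GCC for glycine and CTC for glutamate are known as abundant products in mammalian cells and serum. The values counted reads on each gene, so that fewer molecules per cell and fewer cells cannot be told apart. Nor can whole tRNAs and fragments in the libraries of total RNA. For size selected RNA, the size range given in the study's methods lies below the length of the member genes. Whole tRNAs were thus selected against there.

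There were 4 glycine anticodons, GlyGCC with 14 copies, GlyCCC with 7, GlyTCC with 7 and GlyACC with 1. The glutamate tRNAs had 2 anticodons, GluCTC with 13 copies and GluTTC with 8. The copies lay on 14 chromosomes of mm10 and were between 71 and 74 nt long. Of these, 21 lay in 7 clusters in which neighbours were at most 10 kb apart. The largest cluster, at chr1:171064164-171081946, held 9 copies, 3 each of GlyGCC, GlyTCC and GluCTC. In the GENCODE annotation, 34 copies were intergenic, 14 intronic and 2 touched an exon. Those 2 were chr17.tRNA112-GlyCCC (chr17:25875088-25875158) in a UTR of Mettl26 and chr1.tRNA1009-GlyTCC (chr1:171064699-171064770) at a UTR of Fcgr3, an Fc receptor gene of macrophages. A RefSeq tRNA gene name was matched for 48 of 50.

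The mitochondrial genome has its own tRNAs for the same amino acids, which are no members and serve as a comparison. Their deposited sequences are shown, with the anticodon in capitals, because the anticodons are the same as those of the nuclear GlyTCC and GluTTC. The gene of mt-Tg is at MT:9391-9458 on the plus strand and that of mt-Te at MT:14071-14139 on the minus strand of mm10.
mt-Tg: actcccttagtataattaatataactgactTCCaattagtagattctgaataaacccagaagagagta
mt-Te: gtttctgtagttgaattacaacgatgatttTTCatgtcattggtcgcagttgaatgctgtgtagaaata

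Between 6053130 and 7760142 reads fell on listed features in the Ion Proton libraries, and between 4039837 and 12178454 in the SOLiD libraries. The RNA integrity number was between 8.4 and 8.9 for the Ion Proton libraries and 8.4 and 7.5 for the SOLiD control and withdrawal libraries of total RNA. It was 2.7 and 2.6 for size selected RNA. Levels are counts (CPM, Ion Proton) or reads (RPM, SOLiD) per 1000000 reads on listed features. Of the markers, all 6 miRNAs of blood cells and macrophages were listed in both tables (matched by miRBase identifier), with a summed level of at least 51107 CPM or RPM in every library, although miR-142a-3p was at most 3.71 RPM in the SOLiD libraries. This sum was lower after withdrawal, at 68005 and 73997 CPM in control and 51107 and 58108 CPM in withdrawal libraries of the Ion Proton run, and at 385403 and 143166 RPM in SOLiD total RNA and 233490 and 95758 RPM in size selected RNA. Most of it was miR-21a-5p, and not every marker went the same way. For miR-155-5p the Ion Proton libraries overlapped, with 198 and 177 CPM in control and 222 and 198 CPM in withdrawal libraries, and SOLiD total RNA had 361 and 575 RPM. The part of these markers in the results was not tested. Of 12 miRNAs of other cell types, 10 were listed in the SOLiD table and 6 in the Ion Proton table. The 6 listed in both summed to between 11.4 and 18.0 CPM in the Ion Proton libraries but to between 3287 and 5287 RPM in the SOLiD libraries, where all 10 summed to between 7081 and 11321 RPM. Most of the SOLiD signal came from the epithelial miR-200c-3p, miR-141-3p and miR-205-5p (4351 to 6738 RPM) and the erythroid miR-451a and miR-144-3p (2395 to 3991 RPM). It was present in SOLiD libraries of both conditions, and its part in the SOLiD values below was not tested.

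A read that maps to several copies can be counted at each of them, so that a sum over copies may count it many times. The copy with most reads counts it at most once within its anticodon. Neither form separates reads that map to copies of different anticodons, which can be counted at each. In SOLiD control total RNA, for example, chr3.tRNA282-GlyCCC had 1026 RPM and chr4.tRNA1308-GlyGCC 1030 RPM. Both forms are given. With copies summed, the glycine and glutamate tRNAs took 16.3% and 15.7% of listed reads in control cells of the Ion Proton run and 28.8% and 26.5% after M-CSF withdrawal. The withdrawal libraries lay above the controls, with means of 16.0% ± 0.415 and 27.7% ± 1.60 (SD, n = 2 each), a ratio of 1.73. The exact two-sided permutation test gave p = 0.333, the smallest that 2 against 2 libraries allow. With only the most-read copy of each anticodon in the table, the ratio was 2.15, from a mean of 2.95% to 6.35%. The summed share in SOLiD total RNA was 3.00% in control cells and 7.40% after withdrawal, and 2.63% and 8.77% in size selected RNA. Among reads outside miRNA, the direction of the summed SOLiD values turned. There, glycine and glutamate tRNAs with copies summed were 16.8% in control cells and 12.6% after withdrawal in total RNA. In size selected RNA they were 20.9% and 16.0%. The Ion Proton libraries had a mean of 27.2% ± 0.310 in control cells and 39.6% ± 2.15 after withdrawal (SD, n = 2 each). With the most-read copy, the SOLiD direction turned in size selected RNA (5.52% and 4.51%) but not in total RNA (4.52% and 4.87%).

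Seen against the nuclear tRNA reads alone, the 2 runs differed. In the Ion Proton run, glycine and glutamate tRNAs were 61.2% and 59.3% of nuclear tRNA reads in control cells and 61.1% and 59.5% after withdrawal, so that the groups overlapped (exact permutation test, p = 1, n = 2 each). In the SOLiD run this share was lower after withdrawal, at 29.6% and 17.6% in total RNA and at 29.9% and 21.2% in size selected RNA, with 1 library each. GlyGCC carried most of that difference, with 15.5% and 5.64% of nuclear tRNA reads in total RNA and 11.3% and 5.59% in size selected RNA. GluTTC was at 4.27% and 4.57% in total RNA.

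**Figure D1:**
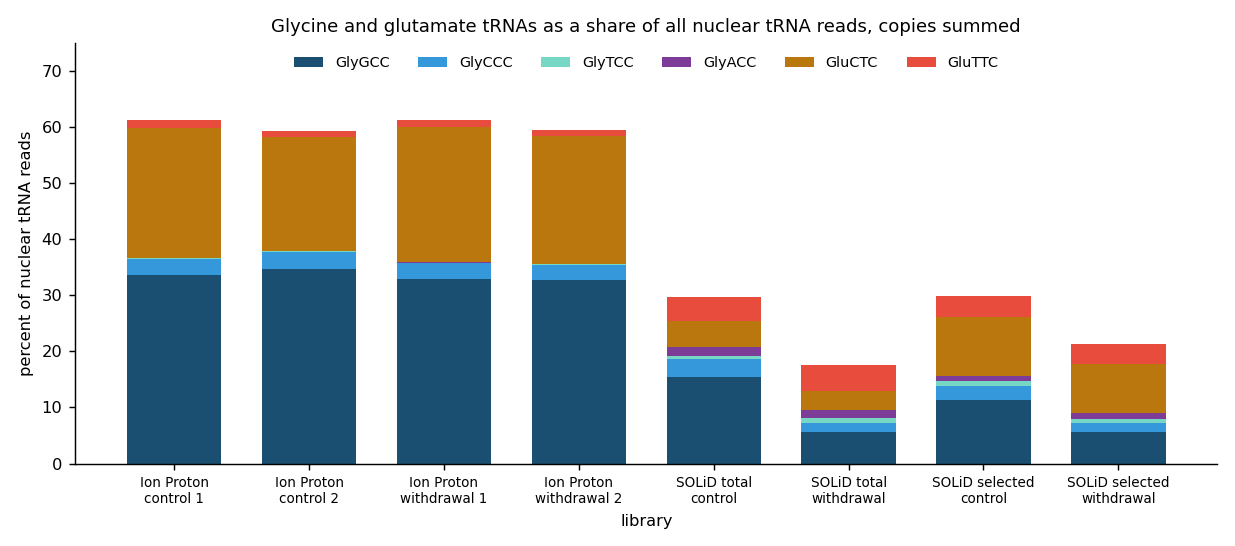
Percent of nuclear tRNA reads (y axis, copies summed) that each glycine and glutamate anticodon took in each of the 8 libraries (x axis), as stacked bars from 0. The Ion Proton bars reach 59.3% to 61.2% in both conditions, and the SOLiD withdrawal bars (17.6% and 21.2%) are lower than their controls (29.6% and 29.9%).

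With copies summed, GlyGCC and GluCTC were the most read members in the Ion Proton run. GlyGCC was the first and GluCTC the second of 51 nuclear anticodons in all 4 Ion Proton libraries. The order GlyGCC, GluCTC, GlyCCC, GluTTC, GlyTCC, GlyACC was the same in the 4 libraries, and no neighbours in it overlapped within a condition. With the most-read copy, GlyACC stood above GlyTCC, and GlyCCC and GluCTC changed places in 1 control library. Of the 51, GlyGCC then ranked 1st, 1st, 1st and 2nd and GluCTC 3rd, 5th, 3rd and 4th. These ranks are in the order control 1, control 2, withdrawal 1 and withdrawal 2. In SOLiD total RNA the summed levels were closer together, and GlyACC, the last in the Ion Proton run, ranked 12th of 51 there. The genes are of nearly equal length, so levels were compared without a correction for it.

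Among the glycine tRNAs, GlyGCC had 89673 and 92157 CPM in the control libraries and 154912 and 145801 CPM after withdrawal. Both withdrawal libraries lay above both controls. In the edgeR fit, which scales libraries by TMM factors rather than by total reads, its log2 fold change was 0.92 (SE 0.05, adjusted p = 0.00164). GlyCCC had 7594 and 7971 CPM in control cells and 13148 and 12403 CPM after withdrawal. It rose by a log2 fold change of 0.91 (SE 0.07, adjusted p = 0.00373), close to that of GlyGCC. GlyACC, which has a single gene, chr11.tRNA205-GlyACC (chr11:48823728-48823801), had 108 and 104 CPM in control cells and 197 and 196 CPM after withdrawal. It rose by 1.09 on the log2 scale (SE 0.10, adjusted p = 0.00618).

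GlyTCC stood apart from the other glycine anticodons. It had 558 and 528 CPM in control cells and 544 and 566 CPM after withdrawal, and the groups overlapped. Its log2 fold change of 0.23 (SE 0.09) did not pass the threshold (edgeR, adjusted p = 0.214). The ratio of its mean CPM was 1.02, while those of the other 5 anticodons lay between 1.52 and 1.87.

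Of the glutamate tRNAs, GluCTC had 61650 and 53942 CPM in control cells and 114045 and 101704 CPM after withdrawal. It rose by 1.10 on the log2 scale (SE 0.09, adjusted p = 0.00378), with no overlap of the groups. GluTTC had 3746 and 2758 CPM in control cells and 5153 and 4727 CPM after withdrawal. Its controls were further apart than those of the other members, and its log2 fold change of 0.80 (SE 0.16) passed with an adjusted p of 0.0420. This call was lost without withdrawal replicate 1 (log2 fold change 0.75, adjusted p = 0.0973) or replicate 2 (0.88, adjusted p = 0.0763), and over the 4 fits that leave out a library the adjusted p was between 0.0102 and 0.0973.

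In all, 5 of 6 anticodons rose in the Ion Proton run with copies summed, beside 7.53% of the 1660 features tested that were called higher. None of the 6 fell in edgeR, also at an unadjusted p under 0.05, or in DESeq2, beside 5.60% of features called lower. The groups did not overlap for 5 of 6 anticodons, beside 24.2% of features in which both withdrawal libraries lay above both controls. The median log2 fold change was 0.92 over the 6, 0.02 over all features and 0.73 over the other 45 nuclear anticodons, of which 22 rose. With the most-read copy in place of the sum, 4 of 6 rose, beside 7.41% of features. The groups then did not overlap for 6 of 6, GlyTCC included, beside 33.7% of features. GlyGCC (0.92), GlyCCC (0.94), GlyACC (1.11) and GluCTC (1.14) were called, while GluTTC had a log2 fold change of 0.64 (SE 0.18, adjusted p = 0.103) and GlyTCC one of 0.30 (SE 0.11, adjusted p = 0.184). With the replicate number as a block in edgeR, 0 of 6 passed in either form. Of the 1660 features, 7 were then called higher with copies summed and 11 with the most-read copy. The 5 anticodons called without the block, copies summed, had adjusted p between 0.0741 and 0.117 with it.

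**Figure D2:**
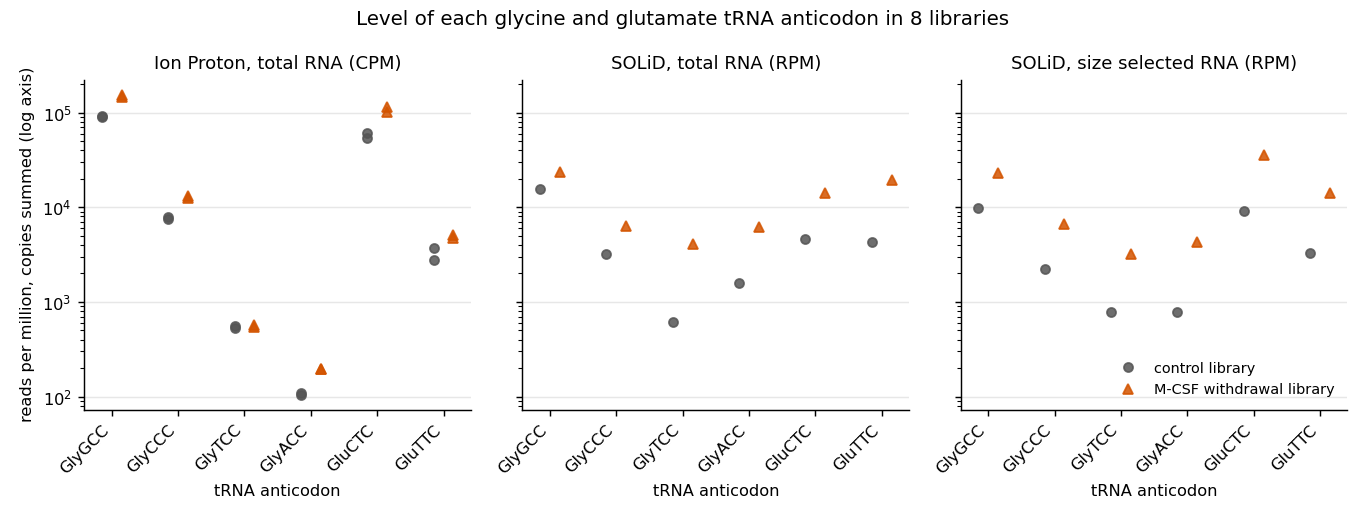
Level of each anticodon with copies summed, as CPM or RPM on a log axis, in the Ion Proton libraries (2 per condition) and the SOLiD libraries of total and of size selected RNA (1 per condition). Circles are control and triangles withdrawal libraries, and the overlapping GlyTCC points of the Ion Proton run (528 to 566 CPM) contrast with its SOLiD points.

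The copies were then taken as features of their own. All 50 had a positive log2 fold change, and 34 rose, beside 15.7% of the 2029 features tested that were called higher. None fell in edgeR, also at an unadjusted p under 0.05, or in DESeq2, beside 8.97% of features called lower. The sign was common among nuclear tRNAs. With copies summed, 41 of the other 45 nuclear anticodons and 851 of all 1660 features tested had a positive log2 fold change. Both withdrawal libraries lay above both controls in 43 of 50 copies, beside 33.4% of features. Copies are not independent, since many held nearly the same reads. Read counts agreed within 5% in every Ion Proton library among 6 GlyGCC copies, among 6 GlyTCC copies and among 6 GluCTC copies, for example. A split of reads between such copies is uncertain.

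All 14 GlyGCC copies rose, by log2 fold changes between 0.76 and 1.02. The most-read, chr11.tRNA1819-GlyGCC (chr11:69118794-69118864), also had the smallest change, with 8932 and 9181 CPM in control cells and 15209 and 14303 CPM after withdrawal. The largest change was that of chr1.tRNA704-GlyGCC (chr1:171074302-171074372) in the cluster on chromosome 1, from 1923 and 1954 CPM to 3890 and 3715 CPM. Its 2 neighbours of the same anticodon in that cluster, chr1.tRNA702-GlyGCC and chr1.tRNA706-GlyGCC, held nearly the same counts, and the mean of the 3 was 0.252 and 0.249 of that of the other 11 copies in control cells and 0.299 and 0.303 after withdrawal. That comparison was chosen after the values were seen (exact permutation test, p = 0.333, n = 2 each).

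GlyCCC was dominated by chr3.tRNA282-GlyCCC (chr3:96311254-96311324), which held 84.9% of its summed Ion Proton reads. This copy had 6419 and 6715 CPM in control cells and 11218 and 10574 CPM after withdrawal, a log2 fold change of 0.78 (SE 0.06, adjusted p = 0.00274). Its SOLiD level of 1026 RPM in control total RNA was next to the 1030 to 1163 RPM of the GlyGCC copies. The smallest change among GlyCCC copies was that of chr17.tRNA112-GlyCCC, the copy in Mettl26, with 52.4 and 52.2 CPM in control cells and 68.7 and 62.9 CPM after withdrawal. Its log2 fold change of 0.38 missed the threshold (adjusted p = 0.0503), and chr6.tRNA317-GlyCCC had the same Ion Proton counts.

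None of the 7 GlyTCC copies passed, with log2 fold changes between 0.06 for chr1.tRNA1009-GlyTCC and 0.14 for chr1.tRNA708-GlyTCC (chr1:171102756-171102827). The latter, which was the most-read, had 83.9 and 79.4 CPM in control cells and 85.9 and 87.1 CPM after withdrawal. The direction of chr1.tRNA1009-GlyTCC turned in DESeq2 (-0.06) and without control replicate 1 (-0.03), and that of chr1.tRNA1012-GlyTCC, 0.07 in edgeR, turned in DESeq2 (-0.05).

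Of 13 GluCTC copies, 12 rose. The most-read, chr1.tRNA709-GluCTC (chr1:171103043-171103114), went from 7097 and 6215 CPM to 13370 and 11912 CPM, a log2 fold change of 0.98 (SE 0.09, adjusted p = 0.00422). Among copies with a mean of at least 10 CPM the change was between 0.45 for chr17.tRNA719-GluCTC (chr17:56092001-56092072, adjusted p = 0.0432) and 1.10 for chr12.tRNA892-GluCTC (chr12:42415075-42415146, adjusted p = 0.0121). The call of chr17.tRNA719-GluCTC was lost in some settings that leave out a library (adjusted p between 0.0370 and 0.160). The copy not called, chr3.tRNA622-GluCTC, had only 3 or 4 reads in each Ion Proton library.

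The GluTTC copies fell into sets with different changes. Those on chromosome 3, chr3.tRNA754-GluTTC (chr3:96387405-96387476) and chr3.tRNA286-GluTTC (chr3:96346675-96346746), both rose. The former had 190 and 163 CPM in control cells and 537 and 463 CPM after withdrawal, the largest change of all 50 copies in this fit, with a log2 fold change of 1.56 (SE 0.12, adjusted p = 0.00274). The most-read copy, chr9.tRNA961-GluTTC (chr9:104408667-104408738), had 599 and 426 CPM in control cells and 716 and 657 CPM after withdrawal, a log2 fold change of 0.47 (SE 0.18, adjusted p = 0.141). That value moved with single control libraries, to 0.26 without control replicate 2 (adjusted p = 0.141) and to 0.63 without control replicate 1, where it passed (adjusted p = 0.0147). The 6 copies outside chromosome 3 were between 0.47 and 0.54 and none passed in edgeR.

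Per copy, the chromosome 3 pair had 0.346 and 0.409 of the mean level of the other 6 copies in control cells and 0.798 and 0.736 after withdrawal, a log2 difference of 1.03. This comparison, too, was chosen after the values were seen, and the exact permutation test could give no less than its p of 0.333 (n = 2 each). In the SOLiD run the same ratio was lower after withdrawal, at 0.657 in control cells and 0.433 after it for total RNA, and at 2.64 and 2.22 for size selected RNA. There, the pair had 388 RPM each in control total RNA and 773 RPM each in control size selected RNA, near the 382 and 769 RPM of chr1.tRNA709-GluCTC.

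**Figure D3:**
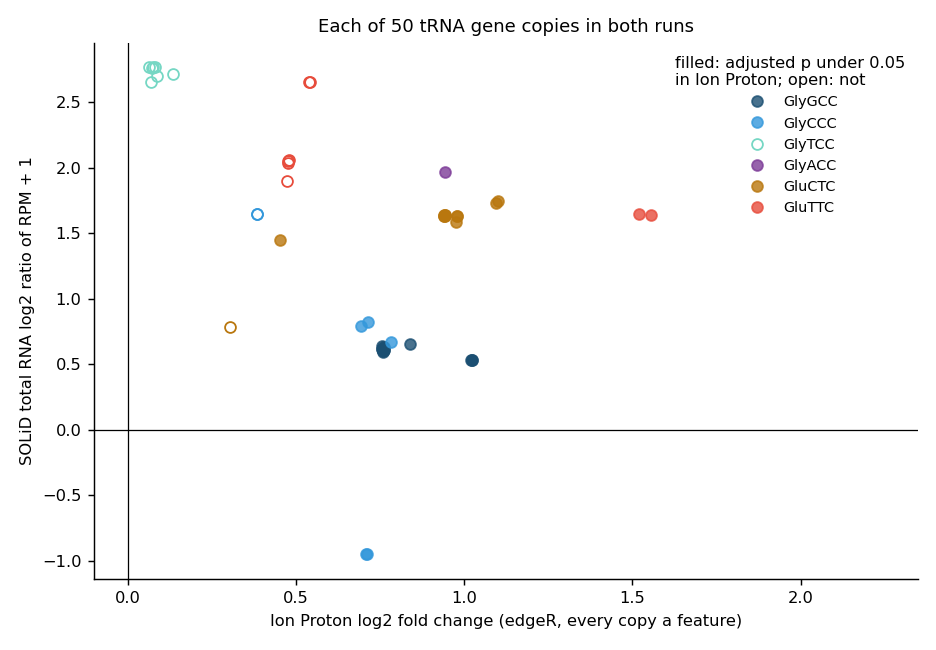
Ion Proton log2 fold change (x axis, edgeR) against the SOLiD total RNA log2 ratio of RPM plus 1 (y axis) for each of the 50 copies, coloured by anticodon and filled where the Ion Proton change passed. The GlyTCC copies lie at the upper left (0.06 to 0.14 against 2.65 to 2.77), and a pair of GlyCCC copies lies below 0 on the y axis only (-0.95).

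The SOLiD libraries had no replicates, so their log2 ratios of RPM plus 1 carry no test, and their Wilson intervals cover counting error at most. With copies summed, the intervals take each count at a copy as a separate read, so they are too narrow where copies share reads. For GlyGCC in control total RNA, the sum held 90453 counts and the most-read copy 6654 (1153 RPM, 95% interval 1125 to 1181). All 6 anticodons were higher after withdrawal in both kinds of RNA, with control and withdrawal intervals that did not overlap. The intervals of the most-read copies did not overlap either. How often the intervals of other features overlapped was not counted. With copies summed, 40 of 43 other nuclear anticodons with 10 RPM or more in each library were also higher in total RNA. In size selected RNA, 41 of 44 were. In total RNA, GlyTCC showed the largest ratio of the 6, with 606 RPM (95% interval 586 to 627) in control cells and 4066 RPM (4031 to 4102) after withdrawal, a log2 ratio of 2.74. GlyGCC showed the smallest, with 15670 RPM (15569 to 15771) and 23727 RPM (23641 to 23812), a log2 ratio of 0.60. In the Ion Proton run, by contrast, GlyTCC had the smallest change of the 6.

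GlyCCC was at 3176 and 6414 RPM in total RNA, a log2 ratio of 1.01. GlyACC, with 1599 and 6255 RPM, had a ratio of 1.97. The glutamate anticodons differed less from each other, GluCTC with 4607 and 14277 RPM (log2 ratio 1.63) and GluTTC with 4320 and 19230 RPM (2.15). A log2 ratio of at least 1 was reached by 5 of 6 anticodons, beside 25.0% of the 692 features that had 10 RPM or more in each library of the pair. The median was 1.80 over the 6, -0.23 over those features and 2.03 over 43 other nuclear anticodons.

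In size selected RNA, GluCTC was the most read member after withdrawal, with 9222 RPM in control cells and 36030 RPM after it (log2 ratio 1.97). GlyGCC followed with 9941 and 23049 RPM (1.21). GluTTC had 3305 and 14320 RPM (2.12) and GlyCCC 2242 and 6738 RPM (1.59). GlyACC had the largest ratio here, from 791 to 4329 RPM (2.45), and GlyTCC went from 786 to 3205 RPM (2.03). All 6 reached a log2 ratio of at least 1, beside 35.1% of 613 features, and the median was 2.00 over the 6, 0.54 over those features and 1.63 over 44 other nuclear anticodons.

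With the most-read copy, the ratios in SOLiD total RNA were between 0.63 for GlyGCC and 2.66 for GluTTC, and 4 of 6 reached at least 1, beside 24.7% of features. In size selected RNA all 6 did, beside 34.9% of features. The most-read SOLiD copies were chr1.tRNA699-GlyGCC, chr3.tRNA282-GlyCCC, chr1.tRNA1012-GlyTCC, chr11.tRNA205-GlyACC, chr17.tRNA719-GluCTC and chr14.tRNA364-GluTTC, so that GlyCCC and GlyACC had the same leading copy in both runs. The last of these, chr14.tRNA364-GluTTC (chr14:79481668-79481739), lies in an intron of Elf1 and had 555 RPM in control cells and 3505 RPM after withdrawal, while its Ion Proton log2 fold change of 0.54 was not called (edgeR, adjusted p = 0.0676).

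Of the 50 copies, 48 were higher in SOLiD total RNA after withdrawal, and 30 reached a log2 ratio of at least 1, beside 41.2% of features with every copy counted. The exceptions, named after their values were seen, were chr3.tRNA287-GlyCCC (chr3:96382911-96382981) and chr3.tRNA755-GlyCCC (chr3:96351167-96351237), each in a cluster with a GluTTC copy of the chromosome 3 pair. The former had 75.4 RPM (95% interval 68.6 to 82.8) in control cells and 38.4 RPM (35.1 to 42.1) after withdrawal, from 435 and 468 reads, and the latter had nearly the same values. In the Ion Proton run both were called higher, chr3.tRNA287-GlyCCC with 278 and 297 CPM in control cells and 467 and 440 CPM after withdrawal. All 50 copies were higher in size selected RNA, and 47 reached a log2 ratio of at least 1, beside 47.7% of features. With every copy counted, the median log2 ratio over features was 0.43 in total RNA and 0.90 in size selected RNA. With copies summed, 40 of 43 other nuclear anticodons were higher in total RNA and 41 of 44 in size selected RNA.

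In the limma fit of the 6 libraries of total RNA from both runs, 4 of 6 anticodons rose, beside 6.28% of the 1337 features tested. Of the other 45 nuclear anticodons, 16 rose. The median log2 fold change was 1.03 over the 6 and 1.11 over those 45. The log2 fold change was 0.68 (SE 0.15, adjusted p = 0.0345) for GlyGCC and 0.81 (SE 0.15, adjusted p = 0.0190) for GlyCCC. GlyACC (1.25, adjusted p = 0.0254) and GluCTC (1.14, adjusted p = 0.0189) rose more. GluTTC had a similar log2 fold change of 1.13 but a larger error (SE 0.32, adjusted p = 0.0635), and GlyTCC one of 0.94 with an SE of 0.51 (adjusted p = 0.261). With the most-read copy the same 4 anticodons rose, beside 8.23% of features and 19 of the other 45 nuclear anticodons. The medians were then 1.31 over the 6 and 1.45 over the 45. No member had a negative log2 fold change here, and with copies summed 42 of the other 45 nuclear anticodons had a positive one. The SOLiD libraries set the value of GlyTCC, which was 0.03 without either of them, where GluTTC was called at 0.62. GlyGCC, GlyCCC and GlyACC lost their call without any 1 of the 4 Ion Proton libraries. GluCTC lost it without control replicate 2 or withdrawal replicate 1, and passed without control replicate 1 (adjusted p = 0.0447) or withdrawal replicate 2 (adjusted p = 0.0390). Over all features, 84 were called higher with all 6 libraries and between 25 and 48 without 1 of the Ion Proton libraries.

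The interaction of treatment and run in limma, the SOLiD minus the Ion Proton change, was past the threshold and positive for 3 of 6 anticodons, beside 8.45% of features. With 1 SOLiD library of each condition, its error came from the Ion Proton replicates alone. The SOLiD libraries were assumed to vary like them, and their own spread was not measured. The interaction was 2.71 for GlyTCC (SE 0.14, adjusted p = 0.00101), 1.54 for GluTTC (SE 0.27, adjusted p = 0.0307) and 1.08 for GlyACC (SE 0.15, adjusted p = 0.0145) on the log2 scale. GluCTC missed the threshold with 0.73 (adjusted p = 0.0549), as did GlyCCC with 0.30 (adjusted p = 0.187) and GlyGCC with -0.13 (adjusted p = 0.496). The interaction was past the threshold in the same direction for 25 of the other 45 nuclear anticodons. The runs differed in platform, library kit, amount of input RNA, number of biological replicates and read mapping. The RNA integrity number was 8.4 for the SOLiD control and 7.5 for the SOLiD withdrawal library of total RNA, and 8.4 to 8.9 in the Ion Proton run. The parts of these differences cannot be told apart.

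**Figure D4:**
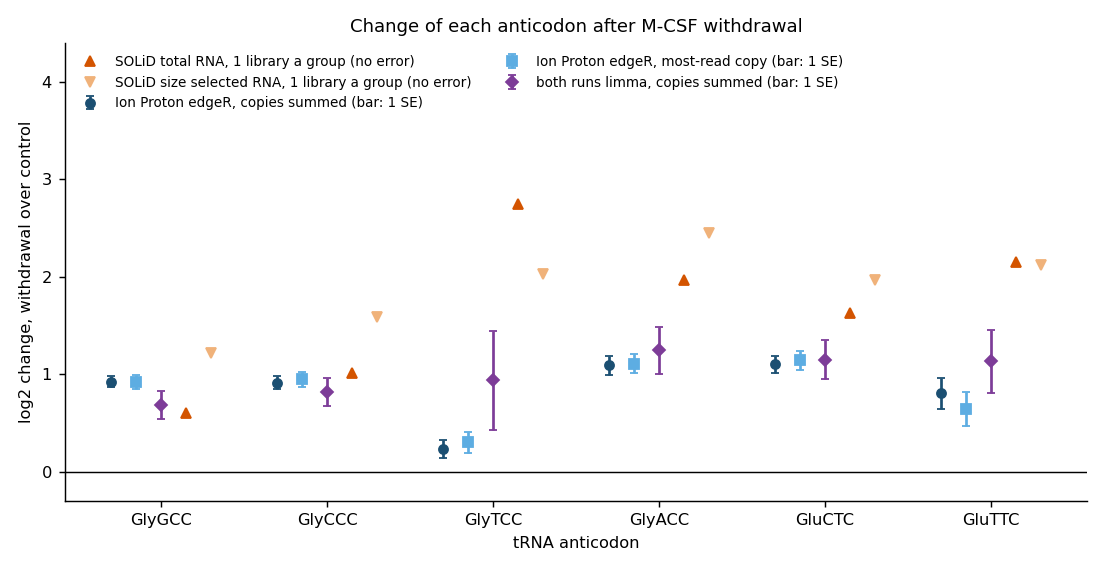
Log2 change of each anticodon (withdrawal over control, y axis) in the Ion Proton edgeR fits with copies summed and with the most-read copy, in the limma fit of both runs (bars are 1 SE), and in the SOLiD libraries (triangles, 1 library a group and no error). GlyTCC has the smallest Ion Proton change of the 6 (0.23) and the largest SOLiD total RNA ratio (2.74).

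A ratio of anticodons within a library does not depend on how the library is scaled, and 4 pairs were compared. The ratio of GlyTCC to GlyGCC was lower after withdrawal in the Ion Proton run by 0.69 on the log2 scale, and higher by 2.15 in SOLiD total RNA and by 0.81 in size selected RNA. GluTTC to GluCTC gave -0.28, 0.52 and 0.15 in the same order. GluCTC to GlyGCC was higher in each, by 0.18, 1.03 and 0.75. GlyCCC to GlyGCC differed by -0.01 in the Ion Proton run and was higher in SOLiD total RNA by 0.42 and in size selected RNA by 0.37. With the most-read copy, this last ratio differed by only 0.04 and 0.02 in the SOLiD pairs. GluTTC to GluCTC then gave -0.48, 1.21 and 0.39, GlyTCC to GlyGCC -0.62, 2.03 and 0.71, and GluCTC to GlyGCC 0.22, 0.82 and 0.71, in the same order. With copies summed, the Ion Proton ratios of the first 3 pairs did not overlap between conditions, with an adjusted p of 0.444 (exact permutation test, n = 2 each, Benjamini-Hochberg over 4 pairs), and GlyCCC to GlyGCC had an adjusted p of 1 in the same exact test.

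Over the 8 libraries, the other nuclear anticodons whose log2 values, centred on each run and RNA type, lay closest to the mean of the 6 were LysCTT (Euclidean distance 0.20), AlaAGC (0.37), ValAAC (0.46), ProCGG (0.57) and AlaCGC (0.60). Of the members themselves, GluCTC was closest to that mean (0.28) and GlyTCC the farthest from it (0.98).

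The mitochondrial tRNAs of the same amino acids changed more in the Ion Proton run. The glycine tRNA mt-Tg had 49.2 and 40.5 CPM in control cells and 543 and 492 CPM after withdrawal, and rose by 3.72 on the log2 scale (SE 0.14, edgeR, adjusted p = 0.000622). The glutamate tRNA mt-Te had 28.5 and 28.1 CPM in control cells and 301 and 331 CPM after withdrawal, and rose by 3.68 (SE 0.13, edgeR, adjusted p = 0.000514). In SOLiD total RNA their log2 ratios were 3.43 and 3.87, above those of the 6 nuclear anticodons, and in size selected RNA 2.28 and 2.11, within the range of the 6. The difference between mitochondrial and nuclear tRNAs was not tested.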

How the data were processed

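Ion Proton reads were trimmed by the authors (cutadapt 1.2.1). They mapped reads of at least 15 bases to mm10 with Bowtie2 2.2.4, allowing up to 10 places per read, and deposited read counts per feature. For the SOLiD run, the authors mapped with LifeScope and deposited RPM over the listed features. Each SOLiD value came to a whole number of reads (within 0.01), so reads were recovered. Counts were fitted with edgeR 4.0.16 (TMM, quasi-likelihood test, summed count of at least 5). The SE given for edgeR was derived as the absolute log2 fold change over the square root of the F statistic. The fit used 3 tables, with nuclear tRNA copies summed by anticodon, with the most-read copy, and with every copy a feature. Both runs were fitted with limma 3.58.1 (treatment and run, intensity trend) on log2 of CPM or RPM plus 1. The Benjamini-Hochberg adjustment ran over every feature tested (threshold 0.05). DESeq2 1.42.0, voom, other scalings and filters, a block for the replicate number and fits without each library in turn were alternatives. Wilson intervals (95%) and exact permutation tests used scipy 1.17.1. The fits were run on simulated data, with changes in both directions planted in features that held a small share of reads. The simulation did not cover features as abundant as GlyGCC or a rise of nuclear tRNAs as a class.

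Named copies were, per anticodon, the most-read in each run and, with 3 or more copies of at least 10 CPM, those with the largest and smallest Ion Proton change, as well as any called against its anticodon's direction (there was none). The mitochondrial tRNAs and the 5 closest other anticodons were also named. Members and lists were chosen with earlier results of these data known.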

Additional observations from a re-analysis of the deposited data

Results flagged for a closer look

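For 3 of 6 anticodons the interaction of treatment and run in limma was past the threshold and positive, beside 8.45% of features. It was so for 25 of the other 45 nuclear anticodons as well. The SOLiD minus Ion Proton difference was 2.71 for GlyTCC, 1.54 for GluTTC and 1.08 for GlyACC on the log2 scale, with adjusted p of 0.00101, 0.0307 and 0.0145. The SOLiD arm had 1 library of each condition, which the fit assumed to vary like the Ion Proton replicates, so these p-values do not cover the spread between SOLiD libraries. Over the 6 miRNAs of other cell types listed in both tables, the SOLiD libraries also had a higher summed level (at least 3287 RPM, against at most 18.0 CPM), whose part was not tested.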

How the results depend on the processing

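In the Ion Proton run, none of the scaling, filter and tool alternatives ended a call of GlyGCC, GlyCCC, GlyACC or GluCTC, and GlyTCC passed in none. Scaling on miRNAs moved the median of all features to 0.19, and relative to it GlyGCC was at 0.90 and GlyTCC at 0.21. With the replicate number as a block, 0 of 6 anticodons passed with copies summed and 0 of 6 with the most-read copy. Of the 50 copies 33 did, beside 233 of the 2029 features called higher with every copy counted. The numbers 1 and 2 (A and B in the library titles) name the libraries, and no shared source is stated. Whether libraries of the same number were paired cannot be told from the labels. Deviations of the replicates were not correlated over features (r = -0.03 over 2029 features). With copies summed, GluCTC, GluTTC and GlyACC were higher in replicate 1 of both conditions, while GlyGCC, GlyCCC and GlyTCC were not. Leaving out a library left 4 to 5 anticodons with copies summed, 4 to 5 with the most-read copy and 33 to 40 copies. In the fit of both runs, 0 to 5 of 6 passed with a library left out. There were 0 without the Ion Proton control 2 or withdrawal 1 library, 1 without control 1 or withdrawal 2, and 5 without either SOLiD library. Calls over all features moved as well, from 84 of 1337 higher to 28 of 1285 without control 2 and 25 of 1274 without withdrawal 1. They were 45 of 1272 without control 1 and 48 of 1283 without withdrawal 2. Without the SOLiD control or withdrawal library they were 120 of 1279 and 114 of 1127. The cause was not tested.

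The median SOLiD ratio of 1.80 in total RNA became 2.03 when centred and 1.71 with the most-read copy, and that of 2.00 in size selected RNA became 1.46 and 1.91. The Ion Proton share of listed reads after withdrawal was 1.73 times that in control cells, 2.15 times with the most-read copy and 1.46 times among reads outside miRNA. Among the latter, with copies summed, it was 0.750 times in SOLiD total RNA and 0.766 times in size selected RNA. With the most-read copy these were 1.08 and 0.817 times. GlyCCC to GlyGCC turned to 0.027 with the most-read copy, and the run difference of GlyGCC to 0.010. Reversals of single copies were -0.056 (DESeq2) for chr1.tRNA1009-GlyTCC, which lay between -0.027 and 0.121 with a library left out, and -0.049 (DESeq2) for chr1.tRNA1012-GlyTCC. Of copies not called in the report, chr9.tRNA961-GluTTC passed in DESeq2 and without control replicate 1, chr14.tRNA364-GluTTC in 5 and chr17.tRNA112-GlyCCC in 3 of the settings, and chr1.tRNA708-GlyTCC when scaled on miRNAs. Counts of all features called differed between settings, for example 130 higher and 8 lower with miRNA scaling against 125 and 93.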
